A study of Arabidopsis thaliana with 34 samples.

Results

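A set of 10 genes of *Arabidopsis thaliana* iron nutrition were followed through RNA-seq libraries of lines that lack a large stretch of chromosome. They were matched by locus, 10 of the 27538 genes in the quantification tables, and were chosen by their TPM and read numbers in all groups, which were in view when the list was made. The members are 3 basic helix-loop-helix regulators of iron uptake, FIT (AT2G28160), bHLH38 (AT3G56970) and bHLH39 (AT3G56980), the root uptake pair IRT1 (AT4G19690) and FRO2 (AT1G01580), the regulators PYE (AT3G47640) and BTS (AT3G18290) of the internal iron response, the nicotianamine synthase NAS4 (AT1G56430), the phloem transporter OPT3 (AT4G16370) and the ferritin FER1 (AT5G01600). Because their levels chose them, the values of the members are given as a description, and where members passed the threshold of the fit over all genes this is stated as a count from which nothing is read. Adjusted p-values are given for 59 other iron genes, and counts of calls for root and leaf markers.

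The study removed blocks of duplicated genes with pairs of guide RNAs and SaCas9, a Cas9 nuclease driven here by an egg cell-specific promoter. In the time-of-day experiment, pools of plate-grown seedlings of the T4 lines pAP141 (deletion on chromosome 3) and pAP142 (deletion on chromosome 5) and of Col-0, the unedited accession, were harvested at one of the time points, evening (t1) or morning (t2). There were 4 pAP141, 3 pAP142 and 4 Col-0 samples at t1, and 2 pAP141, 3 pAP142 and 3 Col-0 samples at t2. In the pAP146 experiment (a larger deletion on chromosome 3), 4 homozygous T3 samples were whole seedlings, taken because these plants developed late, while 3 heterozygous, 4 sibling and 4 Col-0 samples were leaves of single plants without roots. Each deletion is represented by 1 line, pAP142 lines also differed from Col-0 in sequence outside the deletion by the study's account, all plants were grown in long days, and no iron treatment was named for any group. The labels do not say whether the pools came from separate plates, so p-values measure the spread between these samples only.

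Libraries held 26640541 to 43851997 estimated counts. The sum of 13 root markers was 598 to 1147 TPM in pAP141 samples, 430 to 709 TPM in pAP142 samples and 604 to 1212 TPM in Col-0 seedlings, so roots were present in all pools. It was 131 to 566 TPM in homozygous pAP146 seedlings and 2.11 to 9.79 TPM in the leaf samples, where the root tip and endodermis regulators PLT1 and MYB36 were at 0. TPM, the abundance of a transcript relative to the library total, is scaled by transcript length and was used for levels, and log2 fold changes come from edgeR on the counts. Called genes are those with an adjusted p under 0.05 over all genes tested.

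Plants such as Arabidopsis take up iron by first reducing it at the root surface, with FRO2, and then importing it with IRT1. FIT, in partnership with bHLH38 or bHLH39, switches both genes on when iron runs short, and PYE and the ubiquitin ligase BTS act as brakes within the response. Nicotianamine, made by NAS enzymes, carries iron between cells, OPT3 loads it into the phloem and signals the iron status of the shoot to the root, and FER1 stores surplus iron in plastids.

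The members are spread over all chromosomes of the TAIR10.1 assembly. OPT3 lies at chr4:9247302-9250343 on the minus strand and BTS at chr3:6273966-6280562 on the plus strand, and bHLH38 (chr3:21084035-21085245, minus strand) is the direct neighbour of bHLH39 (chr3:21086390-21087710, minus strand). The bHLH38 and bHLH39 genes are tandem copies, so that reads from shared sequence were divided between them by estimate and their separate levels are less certain. The 250 bases before the annotated start of OPT3, BTS, bHLH38 and bHLH39 are printed 5′ to 3′ along the gene from the RefSeq TAIR10.1 genome, since the first pair stood out in pAP141 and the second pair had similar patterns over the seedling samples. Capitals mark the G-box CACGTG, a palindromic site that many bHLH proteins can bind.

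OPT3 (chr4:9250344-9250593, minus strand): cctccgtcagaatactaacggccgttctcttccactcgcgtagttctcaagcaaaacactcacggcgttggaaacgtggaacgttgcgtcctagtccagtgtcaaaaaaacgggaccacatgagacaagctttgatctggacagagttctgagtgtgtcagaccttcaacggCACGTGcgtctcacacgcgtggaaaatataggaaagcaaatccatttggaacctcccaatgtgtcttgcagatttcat
BTS (chr3:6273716-6273965, plus strand): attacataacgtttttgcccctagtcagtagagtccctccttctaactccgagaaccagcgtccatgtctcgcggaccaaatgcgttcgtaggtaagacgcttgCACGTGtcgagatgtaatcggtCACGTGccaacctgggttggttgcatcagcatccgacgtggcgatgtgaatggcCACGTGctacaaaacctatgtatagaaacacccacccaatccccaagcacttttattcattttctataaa
bHLH38 (chr3:21085246-21085495, minus strand): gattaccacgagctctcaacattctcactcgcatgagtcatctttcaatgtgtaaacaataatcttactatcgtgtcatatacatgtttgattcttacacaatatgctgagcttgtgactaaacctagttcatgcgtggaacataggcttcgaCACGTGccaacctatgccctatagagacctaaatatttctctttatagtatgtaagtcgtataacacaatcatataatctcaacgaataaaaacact
bHLH39 (chr3:21087711-21087960, minus strand): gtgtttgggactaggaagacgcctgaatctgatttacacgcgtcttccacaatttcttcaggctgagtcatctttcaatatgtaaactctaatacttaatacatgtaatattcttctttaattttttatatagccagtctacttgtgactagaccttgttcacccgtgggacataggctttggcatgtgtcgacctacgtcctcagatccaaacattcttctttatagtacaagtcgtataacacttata

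A G-box stood in this window of 3 of the 10 members, bHLH38, BTS and OPT3, against 6.49% of the windows of 27443 protein-coding genes. BTS had 3 of them, the nearest 70 to 65 bases before its start. The OPT3 G-box lay 78 to 73 bases and that of bHLH38 97 to 92 bases before the start. The wider E-box CANNTG, which includes every G-box, was in the windows of 6 members and in 55.3% of all windows. The evening element AAAATATCT and the phosphate-response site GNATATNC were in none of the 10, and in 2.36% and 5.46% of all windows. Both strands were searched. A match is a description of letters and not evidence that a protein binds there.

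In pAP141 seedlings in the evening, OPT3 and BTS were lower than in Col-0, and FER1 was higher. OPT3 stood at 29.9, 24.5, 34.6 and 35.0 TPM in pAP141 t1, against 47.1, 59.0, 54.6 and 58.2 TPM in Col-0 t1. The groups did not overlap, and the log2 fold change was -0.64 (SE 0.09). BTS stood at 9.003, 8.82, 12.9 and 13.2 TPM in pAP141 t1, against 16.7, 25.8, 21.3 and 28.2 TPM in Col-0 t1. Again every pAP141 sample lay below every Col-0 sample, with a log2 fold change of -0.89 (SE 0.14). PYE overlapped between the groups, with 15.1, 14.4, 14.3 and 17.3 TPM in pAP141 t1, against 16.1, 21.2, 21.8 and 24.1 TPM in Col-0 t1 (log2 fold change -0.26, SE 0.13).

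The bHLH38 and bHLH39 pair was also low in pAP141 in the evening. Levels of bHLH38 were 1.87, 2.49, 1.502 and 1.71 TPM in pAP141 t1, against 2.49, 6.95, 3.24 and 6.32 TPM in Col-0 t1. Those of bHLH39 were 2.90, 3.09, 2.56 and 2.95 TPM in pAP141 t1, against 4.37, 9.19, 4.84 and 9.48 TPM in Col-0 t1. All pAP141 samples were below all Col-0 samples for both genes, for bHLH38 by a margin of only 2.492 against 2.493 TPM. The spread was wide within Col-0, where replicates 2 and 4 held the higher values. Overlap was judged in TPM, on which scale the median gene was lower by 0.17 (log2) in pAP141 t1 than in Col-0 t1. Of 55 other iron genes tested in this comparison, 18 also lay lower and 1 higher without overlap. The share over all genes was not counted. The log2 fold changes were -1.12 (SE 0.49) for bHLH38 and -1.08 (SE 0.41) for bHLH39. Their partner FIT differed little, at 3.97, 4.32, 4.16 and 5.19 TPM in pAP141 t1, against 4.46, 5.37, 5.07 and 6.54 TPM in Col-0 t1 (log2 fold change -0.10, SE 0.27).

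Of the uptake genes, IRT1 had 5.35, 7.05, 4.005 and 3.36 TPM in pAP141 t1, against 8.89, 9.60, 6.76 and 12.4 TPM in Col-0 t1. One pAP141 sample exceeded the lowest Col-0 sample, and the log2 fold change of -0.72 was close to its SE of 0.64. FRO2 was near or below 1 TPM in both groups, with 0.644, 0.702, 0.228 and 0.293 TPM in pAP141 t1, against 1.28, 0.953, 0.590 and 1.25 TPM in Col-0 t1. Among transport and storage genes, NAS4 had 10.03, 6.92, 10.9 and 11.1 TPM in pAP141 t1, against 12.2, 15.8, 13.2 and 15.03 TPM in Col-0 t1 (log2 fold change -0.36, SE 0.26). FER1 was the member that stood above Col-0 without overlap, at 235, 320, 286 and 246 TPM in pAP141 t1, against 213, 209, 178 and 178 TPM in Col-0 t1 (log2 fold change 0.66, SE 0.19).

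The calls in this comparison were few. At an adjusted p under 0.05, 16 of 21356 genes (0.0749%) were called by edgeR, and 12 of these were listed at 0 counts in all pAP141 t1 samples. The other 4 were OPT3, BTS, AT1G17960 (log2 fold change -1.08) and AT1G65280 (-0.31). The 2 members were therefore among 16 calls, but this contrast was part of what chose them and the count supports nothing. The count of all calls rested on 1 library: without pAP141 t1 replicate 3 it was 2418 genes, and 2 members were then called. With DESeq2 751 genes were called. On the TPM scale the median gene was lower by 0.17 (log2) in pAP141 t1 than in Col-0 t1, whereas the edgeR scaling put it at -0.01, and OPT3 had a log2 ratio of mean TPM of -0.82.

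In the morning none of the 10 members was called in pAP141, and 0.0983% of all genes were. OPT3 had 15.9 and 24.2 TPM in pAP141 t2, against 23.4, 24.4 and 21.1 TPM in Col-0 t2. The groups overlapped, and the log2 fold change was 0.02 (SE 0.11). BTS had 5.73 and 10.3 TPM in pAP141 t2, against 11.35, 10.5 and 8.21 TPM in Col-0 t2, and FER1 had 214 and 178 TPM in pAP141 t2, against 287, 176 and 157 TPM in Col-0 t2. The change of the pAP141 effect between time points (interaction, morning minus evening) was 0.66 (SE 0.14) for OPT3, 0.77 (SE 0.23) for BTS and -0.44 (SE 0.32) for FER1 on the log2 scale. No gene was called for this interaction in edgeR (0.0% of 21356 genes), where 1410 had an unadjusted p under 0.05, and DESeq2 called 14. Without pAP141 t2 replicate 2 edgeR called 138.

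**Figure D1:**
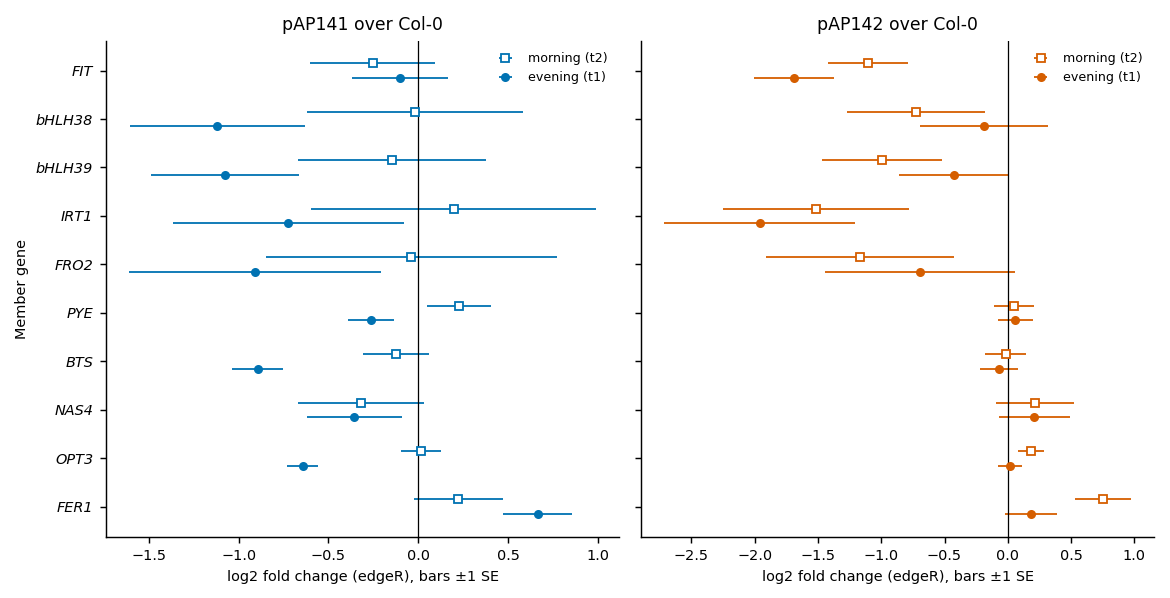
Log2 fold changes (edgeR, bars ±1 SE) of the 10 members in pAP141 over Col-0 (left panel) and pAP142 over Col-0 (right panel), with morning (t2) as open squares and evening (t1) as filled circles. In pAP141 the evening values of OPT3 (-0.64) and BTS (-0.89) stand apart from their morning values (0.02 and -0.12), while in pAP142 FIT is low at both time points (-1.69 and -1.10).

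Among the 59 other iron genes, 55 were tested in seedlings, and none was called in pAP141 at either time point by edgeR. In the evening 14 of the 55 had an unadjusted p under 0.05, beside 4811 of all 21356 genes. In the morning 8 of the 55 had one, beside 3563 of all genes. Both shares are close to those of all genes. DESeq2 called 6 of the 55 in the evening, where it called 3.52% of all genes, and none in the morning, where it called 2.08%. The median log2 fold change of the 55 in the evening was -0.14, beside -0.01 over all genes. The 6 genes of DESeq2 were COSY (coumarin synthesis, -0.44), FRO3 (a mitochondrial reductase, -0.55), IMA3 (a peptide that promotes iron uptake, -1.08), PDR9 (coumarin export, -0.77) and ZIF1 (vacuolar nicotianamine transport, -0.69), all lower, and the ferritin FER4 (0.63), which was higher. FER4 had 51.7, 59.6, 56.9 and 50.1 TPM in pAP141 t1, against 46.3, 42.6, 38.0 and 34.3 TPM in Col-0 t1, with no overlap, and its edgeR adjusted p was 0.108. IMA3 had 264, 266, 158 and 227 TPM in pAP141 t1, against 319, 585, 496 and 826 TPM in Col-0 t1, also with no overlap, and its edgeR adjusted p was 0.132. Without pAP141 t1 replicate 3 edgeR called 6 of the other iron genes, where 11.3% of all genes were called.

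The remaining fixed genes of the response missed the threshold in the evening in pAP141. In edgeR, IMA1 was at -0.86 on the log2 scale with an SE of 0.38 (adjusted p = 0.2) and IMA2 at -0.91 with an SE of 0.36 (adjusted p = 0.164). The bHLH38 relatives bHLH100 and bHLH101 had -2.43 (SE 0.75) and -1.23 (SE 0.39), with an edgeR adjusted p of 0.132 for each. The ferritin FER3 had 0.10 (SE 0.11, edgeR adjusted p = 0.629).

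In pAP142 in the evening FIT and IRT1 lay below Col-0, while FRO2, bHLH38 and bHLH39 overlapped with it. FIT had 1.72, 1.03 and 2.08 TPM in pAP142 t1, against 4.46, 5.37, 5.07 and 6.54 TPM in Col-0 t1. All pAP142 samples lay below all Col-0 samples, and the log2 fold change was -1.69 (SE 0.31). IRT1 had 2.59, 0 and 4.48 TPM in pAP142 t1, against 8.89, 9.60, 6.76 and 12.4 TPM in Col-0 t1, again without overlap (log2 fold change -1.96, SE 0.75). The sample at 0 had no read on IRT1, where 3 counts would have been 0.0428 TPM, and it was also the lowest for FRO2, at 0.0278 TPM beside 0.474 and 1.37 TPM in the other pAP142 t1 samples. In bulk seedlings, fewer root cells and less RNA per root cell cannot be told apart.

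In contrast, the genes of internal iron handling in pAP142 t1 overlapped with Col-0 t1. OPT3 had 55, 51.4 and 53.9 TPM in pAP142 t1, against 47.1, 59.0, 54.6 and 58.2 TPM in Col-0 t1 (log2 fold change 0.02, SE 0.09). BTS had 23.0, 20.8 and 19.4 TPM in pAP142 t1, against 16.7, 25.8, 21.3 and 28.2 TPM in Col-0 t1 (-0.07, SE 0.15). PYE had 22.6, 21.6 and 18.7 TPM in pAP142 t1, against 16.1, 21.2, 21.8 and 24.1 TPM in Col-0 t1 (0.06, SE 0.14). Their log2 SEs were 0.15 or less. The pAP142 t1 samples disagreed on bHLH38, with 7.69, 1.05 and 2.89 TPM, and on bHLH39, with 9.46, 2.46 and 2.62 TPM. Replicate 1 was the high one for both and for NAS4 (22.9, 7.71 and 15.8 TPM). Without it the log2 fold change against Col-0 t1 was -1.27 for bHLH38, -1.46 for bHLH39 and -0.27 for NAS4, against -0.19, -0.42 and 0.21 with it.

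In the morning FIT had 4.92, 1.45 and 2.04 TPM in pAP142 t2, against 7.57, 6.88 and 3.98 TPM in Col-0 t2. One pAP142 sample exceeded the lowest Col-0 sample (log2 fold change -1.10, SE 0.32), and without that sample the value was -1.74. FER1 was high, at 322, 248 and 440 TPM in pAP142 t2, against 287, 176 and 157 TPM in Col-0 t2 (log2 fold change 0.75, SE 0.22). bHLH39 had 5.25, 2.31 and 2.42 TPM in pAP142 t2, against 8.47, 6.12 and 5.63 TPM in Col-0 t2, with no overlap (-0.99, SE 0.48). IRT1 had 14.99, 4.65 and 2.91 TPM in pAP142 t2, against 37.9, 15.6 and 12.6 TPM in Col-0 t2, where replicate 1 was the high sample of each group (-1.52, SE 0.74).

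Of the members, 1 (FIT) was called in pAP142 t1 where 18.3% of all genes were, and 2 (FIT and FER1) in pAP142 t2 where 7.74% of all genes were. Leaving out single samples removed the morning calls in 4 of 6 cases for FIT and in 3 of 6 for FER1. Of the 13 root markers, 7 were called lower in pAP142 t1 and 3 in pAP142 t2, none higher. Their summed level was 476 to 651 TPM in pAP142 t1, against 1029 to 1212 TPM in Col-0 t1, and 430 to 709 TPM in pAP142 t2, against 604 to 769 TPM in Col-0 t2. Most of these sums came from PYK10, with a mean of 514 TPM in pAP142 t1, against 1001 TPM in Col-0 t1. PLT1 and MYB36 overlapped between the groups. The mean of PLT1 was 0.69 TPM in pAP142 t1, against 0.44 TPM in Col-0 t1, and that of MYB36 was 2.60 against 2.75 TPM. The part of root content in the FIT and IRT1 levels was not tested.

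In pAP142 in the evening 15 of 55 other iron genes were called by edgeR, where 18.3% of all genes were, 3 higher and 12 lower, with a median log2 fold change of 0.03 over the 55 beside -0.03 over all genes. Uptake and reduction genes held 7 of the calls and vacuolar transporters 4. FRO6, a leaf iron reductase, fell by 2.76 on the log2 scale (SE 0.31, edgeR adjusted p = 2.3e-05), at 1.64, 0.727 and 0.844 TPM in pAP142 t1, against 7.97, 7.19, 8.56 and 6.68 TPM in Col-0 t1. The chloroplast reductase FRO7 fell by 1.19 (SE 0.16, edgeR adjusted p = 0.00011), and both reductases had higher morning levels in every genotype. FRO4, a root and flower reductase of the same family, fell by 1.45 (SE 0.32, edgeR adjusted p = 0.00478). MTP3, which moves zinc into vacuoles when iron is short, fell by 1.30 (SE 0.23, edgeR adjusted p = 0.00113). The vacuolar iron transporter-like gene VTL5 fell by 1.22 (SE 0.27, edgeR adjusted p = 0.0056). NRAMP3, which releases vacuolar iron, rose by 1.02 (SE 0.12, edgeR adjusted p = 2.6e-05), at 8.77, 10.2 and 9.70 TPM in pAP142 t1, against 4.13, 5.07, 5.15 and 5.06 TPM in Col-0 t1.

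In the morning 3 of 55 other iron genes were called in pAP142 by edgeR, where 7.74% of all genes were. The nicotianamine-iron transporter YSL1 rose by 0.80 (SE 0.16, edgeR adjusted p = 0.00484), NRAMP3 rose by 0.59 (SE 0.13, adjusted p = 0.00916) and MTP3 fell by 1.13 (SE 0.24, adjusted p = 0.00774). The NRAMP3 call was lost without Col-0 t2 replicate 2 or pAP142 t2 replicate 3, and the MTP3 call without Col-0 t2 replicate 1. DESeq2 called 7 of the 55, where it called 10.8% of all genes. Without pAP142 t2 replicate 1 edgeR called 8, where 11.9% of all genes were called. IMA1, IMA2, IMA3, bHLH100, bHLH101, FER3 and FER4 were called at neither time point in pAP142, with edgeR log2 fold changes between -0.63 and 1.13. For the interaction of pAP142 with time point, 0.211% of all genes (45) were called, no member was, and none of the 55 other iron genes was, with 5 of these at an unadjusted p under 0.05 in edgeR and 2 (FRO6 and FRO7) called by DESeq2. The 45 calls fell to 3 without Col-0 t2 replicate 2 and to 4 without Col-0 t2 replicate 1 or pAP142 t1 replicate 3.

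**Figure D2:**
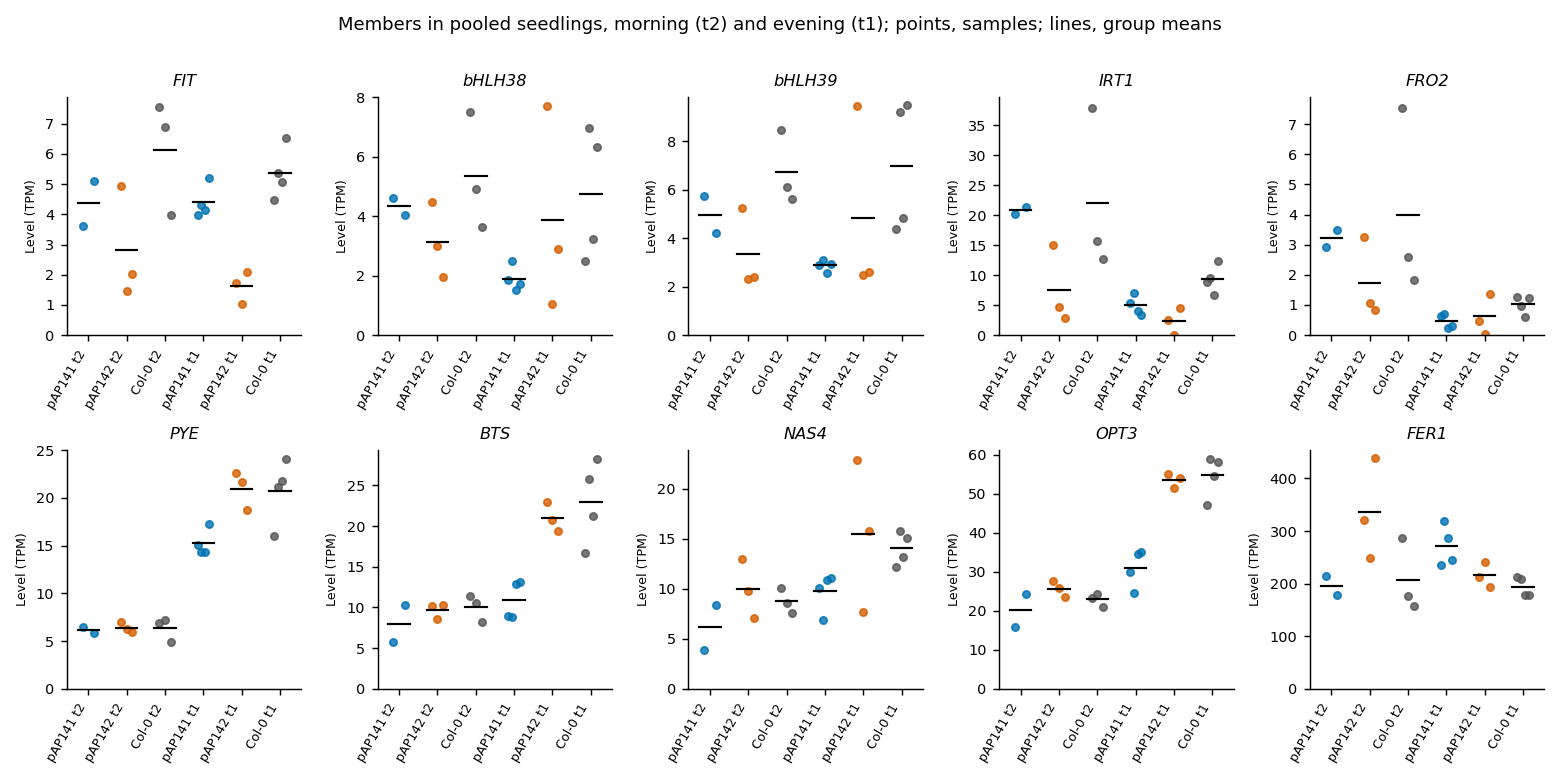
Levels (TPM, linear axes from 0) of the 10 members in each pooled seedling sample, with pAP141 in blue, pAP142 in orange and Col-0 in grey, morning (t2) left of evening (t1). Points are samples and lines are group means. In Col-0 PYE, BTS and OPT3 are lower in the morning and IRT1 and FRO2 higher, without overlap, whereas BTS overlaps between time points in pAP141 and IRT1 and FRO2 do in pAP142, and pAP141 t1 lies below Col-0 t1 for OPT3 (24.5 to 35.0 against 47.1 to 59.0 TPM).

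Morning levels of the internal response genes stood below evening levels in Col-0, and those of the uptake pair above. In Col-0, OPT3 had 23.4, 24.4 and 21.1 TPM at t2, against 47.1, 59.0, 54.6 and 58.2 TPM at t1 (log2 fold change -1.06, SE 0.10). BTS had 11.35, 10.5 and 8.21 TPM at t2, against 16.7, 25.8, 21.3 and 28.2 TPM at t1 (-1.01, SE 0.16), and PYE had 6.86, 7.23 and 4.94 TPM at t2, against 16.1, 21.2, 21.8 and 24.1 TPM at t1 (-1.53, SE 0.15). Morning and evening samples did not overlap for any of the 3. The same genes had log2 fold changes of -0.40 (OPT3, SE 0.11), -0.24 (BTS, SE 0.17, with overlap) and -1.04 (PYE, SE 0.17) in pAP141, and of -0.89 (OPT3, SE 0.10), -0.96 (BTS, SE 0.16) and -1.54 (PYE, SE 0.16) in pAP142. In pAP141 the evening levels of OPT3 and BTS were low, while their morning levels overlapped among the 3 genotypes. The 2 pAP141 samples at t2 lay apart (15.9 and 24.2 TPM of OPT3, 5.73 and 10.3 TPM of BTS), so equal morning levels cannot be read from the overlap.

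The uptake pair stood higher in the morning in Col-0 and pAP141. IRT1 had 37.9, 15.6 and 12.6 TPM in Col-0 t2, against 8.89, 9.60, 6.76 and 12.4 TPM in Col-0 t1, which just failed to overlap (log2 fold change 1.38, SE 0.67). FRO2 had 7.54, 2.60 and 1.81 TPM in Col-0 t2, against 1.28, 0.953, 0.590 and 1.25 TPM in Col-0 t1 (2.11, SE 0.70). Replicate 1 of Col-0 t2 was far above the others for both genes, and without it the FRO2 value was 1.34. In pAP141 the values were 20.1 and 21.4 TPM of IRT1 at t2, against 5.35, 7.05, 4.005 and 3.36 TPM at t1 (2.31, SE 0.74). FRO2 had 2.94 and 3.48 TPM in pAP141 t2, against 0.644, 0.702, 0.228 and 0.293 TPM in pAP141 t1 (2.98, SE 0.78). In pAP142 both genes overlapped between time points.

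The upstream regulators FIT, bHLH38 and bHLH39 overlapped between time points in Col-0, and their difference from the uptake pair was not tested. bHLH38 had 7.51, 4.91 and 3.64 TPM in Col-0 t2, against 2.49, 6.95, 3.24 and 6.32 TPM in Col-0 t1 (0.36, SE 0.50). FIT had 7.57, 6.88 and 3.98 TPM in Col-0 t2, against 4.46, 5.37, 5.07 and 6.54 TPM in Col-0 t1 (0.37, SE 0.29), and bHLH39 had 8.47, 6.12 and 5.63 TPM in Col-0 t2, against 4.37, 9.19, 4.84 and 9.48 TPM in Col-0 t1 (0.15, SE 0.43). In pAP141, in which the evening levels were low, bHLH38 had 4.62 and 4.05 TPM at t2, against 1.87, 2.49, 1.502 and 1.71 TPM at t1, without overlap (1.46, SE 0.57). NAS4 was lower in the Col-0 morning, with 10.1, 8.57 and 7.59 TPM at t2, against 12.2, 15.8, 13.2 and 15.03 TPM at t1 (-0.50, SE 0.29). FER1 had no common direction: its log2 fold change of t2 over t1 was 0.26 (SE 0.21) in Col-0, -0.19 (SE 0.24) in pAP141 and 0.82 (SE 0.22) in pAP142.

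Counts of called members were 4 in Col-0, where 30.6% of all genes were called, 4 in pAP141, where 34.6% were, and 5 in pAP142, where 27.0% were. The rule used these contrasts, and nothing is read from the counts. The 3 comparisons of t2 with t1 use different samples. On the TPM scale the median gene was lower at t2 by 0.20 in Col-0, 0.23 in pAP141 and 0.19 in pAP142 (log2), and no call of a member or of another iron gene in seedlings changed direction on that scale.

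Of the 55 other iron genes tested, edgeR called 24 in Col-0 (13 higher and 11 lower in the morning), 27 in pAP141 (17 higher and 10 lower) and 20 in pAP142 (11 higher and 9 lower). The shares of all genes called were 30.6% in Col-0, 34.6% in pAP141 and 27.0% in pAP142. Median log2 fold changes were 0.06, 0.24 and 0.02 over the 55, in Col-0, pAP141 and pAP142, while that of all genes was within 0.01 of 0 in each. All 3 IMA peptide genes, which signal iron shortage, fell in the morning in each genotype. Their listed lengths are short, at 153 bases for IMA1 and IMA2 and 144 for IMA3. IMA1 and IMA2 lie close together on chromosome 1, and sharing of reads between them was not tested. In Col-0 IMA1 had 8.999, 9.99 and 22.3 TPM at t2, against 48.0, 128, 82.0 and 147 TPM at t1, and fell by 2.71 on the log2 scale (SE 0.48, edgeR adjusted p = 0.000326). IMA1 fell by 2.36 in pAP141 (SE 0.61, edgeR adjusted p = 0.00601) and by 1.82 in pAP142 (SE 0.46, adjusted p = 0.0066). IMA2 fell by 1.66 in Col-0, 1.71 in pAP141 and 1.93 in pAP142, and IMA3 by 1.37 in Col-0, 1.15 in pAP141 and 1.25 in pAP142. With 1 sample left out at a time, the pAP141 calls were lost in 4 of 6 cases for IMA3, 2 of 6 for IMA2 and 1 of 6 for IMA1, and the pAP142 call of IMA3 in 2 of 6.

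The ferritin FER3 also fell in each genotype, by 0.76 in Col-0 (SE 0.13, edgeR adjusted p = 0.000136), 0.70 in pAP141 and 0.89 in pAP142. FER4 fell by 0.65 in Col-0 and 0.94 in pAP141, and in pAP142 its value of -0.27 was not called (edgeR adjusted p = 0.2). bHLH100 and bHLH101, relatives of bHLH38, were called in none of the 3 genotypes. The leaf and chloroplast reductases rose in each genotype: FRO6 rose by 2.76 in Col-0 (SE 0.27, edgeR adjusted p = 4.6e-07), 3.15 in pAP141 and 4.78 in pAP142, and FRO7 by 1.19 in Col-0, 1.77 in pAP141 and 2.04 in pAP142. FRO6 had 47.0, 38.9 and 49.2 TPM in Col-0 t2, against 7.97, 7.19, 8.56 and 6.68 TPM in Col-0 t1.

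Regulators and transporters completed the named set. bHLH34, an activator of the bHLH38 group, rose by 1.16 in Col-0 (SE 0.11, edgeR adjusted p = 1.4e-07), 0.96 in pAP141 and 1.15 in pAP142. BGLU42, a glucosidase of coumarin release, fell by 0.93 in Col-0, 1.202 in pAP141 and 0.68 in pAP142. The nicotianamine-metal transporter YSL2 rose by 0.77 in Col-0, 1.09 in pAP141 and 0.52 in pAP142, the plastid transporter MAR1 rose by 0.51 in Col-0 and 0.78 in pAP141, and FRO8, a mitochondrial reductase, fell by 1.03 in pAP142. Of the 10 leaf markers, 7 in Col-0, 8 in pAP141 and 6 in pAP142 were called higher in the morning. Their summed levels were 73560 to 77520 TPM in Col-0 t2, against 46410 to 51140 TPM in Col-0 t1. The markers did not move together. In Col-0 the mean of LHCB1.1 was 6999 TPM at t2 against 82.9 TPM at t1, while that of RBCS2B was 7682 against 7679 TPM. RBCS1B was lower, at 5745 to 6179 TPM in Col-0 t2, against 6640 to 7291 TPM in Col-0 t1. The sums are therefore no plain measure of leaf content, and the part of leaf content in the morning values of FRO6 and FRO7 was not tested.

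**Figure D3:**
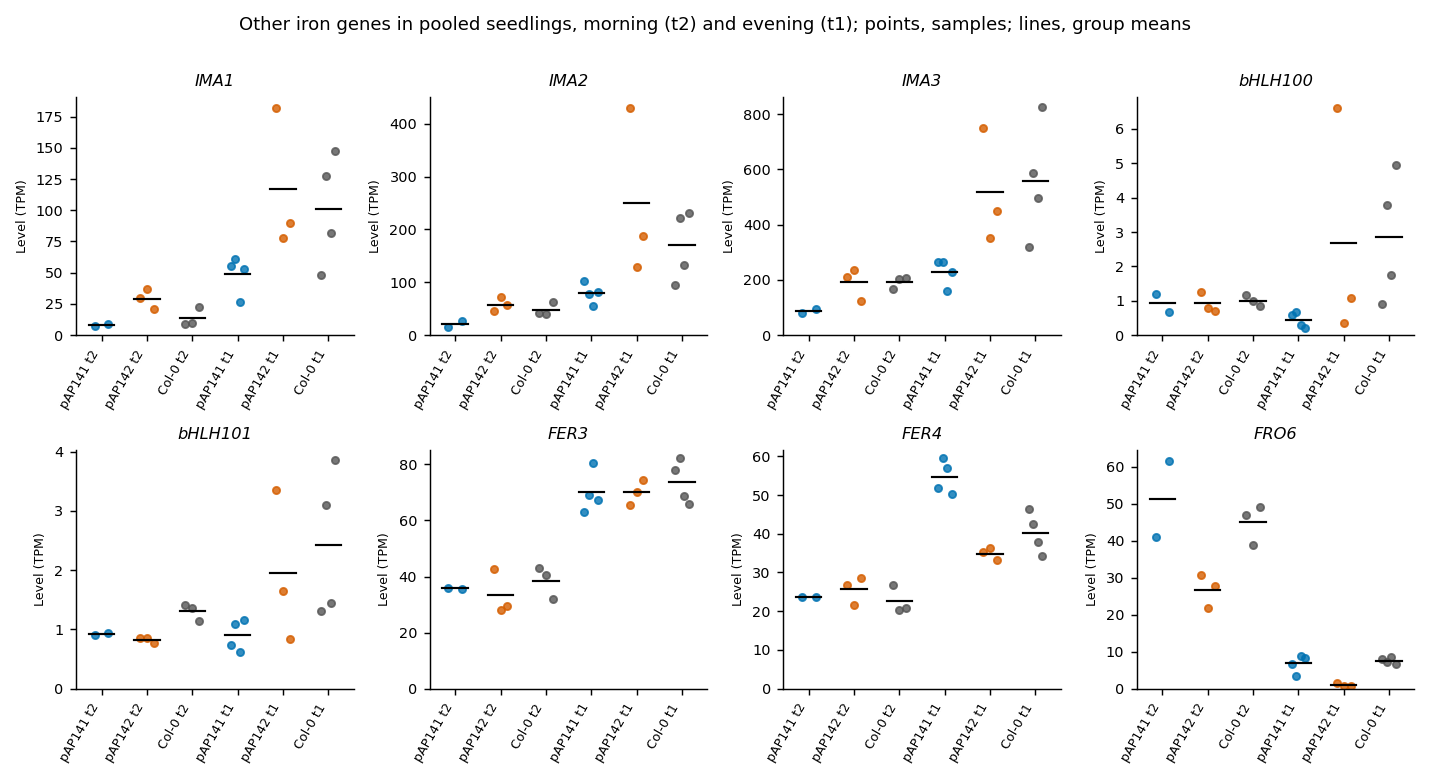
Levels (TPM, linear axes from 0) of 8 other iron genes in each pooled seedling sample, in the same colours and order, morning (t2) left of evening (t1), with lines at group means. IMA1, IMA2, IMA3 and FER3 are lower in the morning in each genotype, while FRO6 is higher, at 38.9 to 49.2 TPM in Col-0 t2 against 6.68 to 8.56 TPM in Col-0 t1.

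Likeness of pattern was taken as Pearson's r of log2(TPM + 1) over the 19 seedling samples, among 14368 genes whose mean reached 5 TPM in some group. The samples share genotype, time point and library, so the values are descriptive. The members were chosen with these levels in view, so nothing is read from the rank of a member beside another member. OPT3 was most like BTS (r = 0.96), above every gene outside the list, and PYE followed at 0.89 with 221 other genes above it. Outside the list the nearest to OPT3 were AT3G24760, AKRP and CYP81D5 (r = 0.95 each), and none of these was among the nearest by Spearman's rho. bHLH39 was most like its tandem copy bHLH38 (r = 0.91), followed at some distance by LAC3 (0.72), PRR1 (0.69) and PFC1 (0.68). IRT1 was most like AT3G61560 (0.92), MTP3 (0.92) and AT1G29530 (0.89), and FER1 was like NKS1 (0.73), AT3G08890 (0.67) and AT4G32870 (0.64). By Spearman's rho 1 of the 3 genes named was kept for bHLH39 and 1 for IRT1, and for IRT1 1 was kept with a pseudocount of 0.1. FER1 had negative values with the 8 other members that reached this level (FRO2 did not), the lowest with bHLH39 (-0.41).

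**Figure D4:**
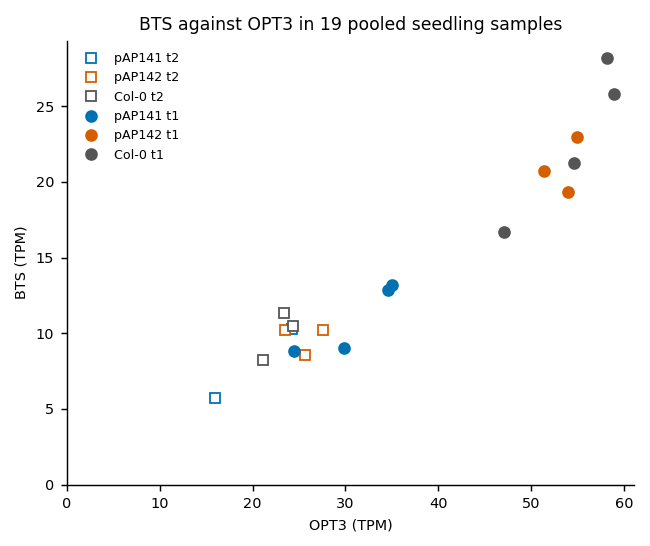
BTS against OPT3 (TPM) in the 19 pooled seedling samples, with pAP141 in blue, pAP142 in orange and Col-0 in grey, open squares for morning (t2) and filled circles for evening (t1). The 4 pAP141 evening samples (24.5 to 35.0 TPM of OPT3) lie below the evening samples of pAP142 and Col-0 (47.1 to 59.0 TPM), and the lowest of them falls among the morning samples.

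Homozygous pAP146 plants were whole seedlings and their controls were leaves, so genotype and tissue cannot be told apart. Root uptake genes were found in the seedlings and hardly in leaves. IRT1 had 0.321, 2.63, 21.7 and 6.80 TPM in homozygous seedlings, against 0 in all 4 sibling and all 4 Col-0 leaf samples. With a floor of 3 counts per library, which was 0.046 to 0.0585 TPM in siblings, its mean was at least 151-fold higher in homozygous seedlings, and at least 62.5-fold higher without replicate 3, a comparison added after seeing the data. FIT had 2.22, 5.66, 8.92 and 10.6 TPM in homozygous seedlings, against 0.666, 0.384, 0.692 and 0.732 TPM in sibling leaves (log2 fold change 2.70, SE 0.39). FRO2 had 0.259, 1.02, 8.10 and 3.19 TPM in homozygous seedlings, against 0.216, 0.108, 0.161 and 0.216 TPM in sibling leaves (3.37, SE 0.79). In TPM all homozygous samples lay above all siblings for the 3 genes, for FRO2 by little in replicate 1.

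For bHLH38 and bHLH39 the leaf samples held 0 to 4 counts, too few for a ratio. bHLH38 had 1.16, 0.58, 4.58 and 0.208 TPM in homozygous seedlings, against 0, 0, 0 and 0.0903 TPM in sibling leaves. bHLH39 had 0.405, 0.377, 3.05 and 0.372 TPM in homozygous seedlings, against 0, 0, 0.0559 and 0.022 TPM in sibling leaves. Homozygous replicate 3 was the highest sample for both, for IRT1 and for FRO2. These 3 genes, IRT1, bHLH38 and bHLH39, passed the filter on low counts only through the homozygous group.

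The internal response genes varied among homozygous seedlings. OPT3 had 73.7, 47.6, 90.5 and 27.9 TPM in homozygous seedlings, against 21.9, 25.0, 25.1 and 29.0 TPM in sibling leaves, and replicate 4 fell within the siblings (log2 fold change 0.51, SE 0.28). BTS had 16.3, 11.7, 21.1 and 8.71 TPM in homozygous seedlings, against 4.76, 7.03, 6.48 and 7.58 TPM in sibling leaves (0.43, SE 0.25). PYE had 15.2, 9.05, 19.7 and 8.78 TPM in homozygous seedlings, against 3.22, 5.36, 4.08 and 6.62 TPM in sibling leaves (0.70, SE 0.35). Replicates 1 and 3 were the highest homozygous samples for all 3 genes. BTS and PYE did not overlap between the groups in TPM. On that scale the median gene was higher by 0.67 (log2) in homozygous seedlings than in siblings. Of the 50 other iron genes tested, 28 lay higher and 4 lower without overlap. Of these 50, 6 passed the filter only through the homozygous group. The share over all genes was not counted. NAS4 had 25.3, 8.71, 18.4 and 7.67 TPM in homozygous seedlings, against 3.44, 1.71, 3.81 and 4.62 TPM in sibling leaves (1.41, SE 0.51).

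FER1 ran the other way across the homozygous samples, with 23.2, 82.0, 32.4 and 368 TPM, against 56.5, 54.6, 94.9 and 66.4 TPM in sibling leaves (log2 fold change 0.13, SE 0.69). Replicate 4 was far above all others, and without it the log2 fold change was -1.30. The same replicate was the lowest homozygous sample for OPT3, BTS, PYE, NAS4, bHLH38 and, by little, bHLH39. The uptake genes differed: it was the highest for FIT (10.6 TPM), and only replicate 3 was higher for IRT1 and FRO2. Replicate 4 was also the lowest of the 4 for IMA1 (54.1, 22.1, 68.7 and 5.66 TPM) and IMA3 (323, 100, 308 and 16.1 TPM), and the highest for FER3 (22.8, 24.6, 24.4 and 99.7 TPM). Its root marker sum was the highest of the group at 566 TPM, beside 131, 163 and 306 TPM in replicates 1, 2 and 3.

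Of the members, 6 were called in homozygous seedlings against siblings, where 60.8% of all genes were, and 5 against Col-0 leaves, where 62.0% were. Because 3 of these passed the filter through the homozygous group alone, the counts carry no weight. Root markers moved with the comparison: all 12 that were tested were called higher than in siblings, 9 of which passed the filter only through the homozygous group, and all 10 leaf markers were called lower, with sums of 33010 to 57600 TPM in homozygous seedlings, against 104800 to 118100 TPM in sibling leaves. In siblings CASP2, CASP5, EXPA7, MYB36 and PLT1 were at 0 in every sample. The part of root content in the uptake gene levels was not tested. On the TPM scale the median gene was higher by 0.67 (log2) in homozygous seedlings than in siblings, beside 0.07 in edgeR, so that ratios of the TPM levels above run higher than the fold changes.

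Of the other iron genes, 50 of 59 were tested in this experiment. Against siblings edgeR called 29 in homozygous seedlings, 21 higher and 8 lower, where 60.8% of all genes were called. Without the 6 that passed the filter only through the homozygous group, 15 were higher, and the median log2 fold change of the rest was 0.23, beside 0.07 over all genes. The lower calls of URI and BGLU42 turned to higher on the TPM scale, so that their direction depends on the scaling. PIC1, an iron import protein of the chloroplast envelope, fell by 1.38 on the log2 scale (SE 0.11, edgeR adjusted p = 1.6e-07). The leaf reductases FRO6 and FRO7 fell by 2.35 (SE 0.21, edgeR adjusted p = 5.5e-07) and 1.96 (SE 0.18, adjusted p = 7.8e-07). The regulator bHLH115, which activates the bHLH38 group, rose by 0.84 (SE 0.08, edgeR adjusted p = 1.1e-06), and BTSL2, a relative of BTS that acts in roots, rose by 1.64 (SE 0.19, adjusted p = 6.1e-06). VTL5 had 8.01, 12.3, 13.3 and 16.0 TPM in homozygous seedlings, against 0, 0.0306, 0 and 0 TPM in sibling leaves.

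Among the genes named in every comparison, bHLH101 rose by 4.97 (SE 0.76, edgeR adjusted p = 7.0e-05) and IMA2 by 2.64 (SE 0.79, adjusted p = 0.01) against siblings. IMA1 (2.40, SE 1.02, adjusted p = 0.0554), IMA3 (0.18), FER3 (-0.61) and FER4 (-0.75) were not called in edgeR. bHLH100 had 1.495, 0.322, 1.725 and 0.0735 TPM in homozygous seedlings, against 0, 0, 0.0303 and 0.0478 TPM in sibling leaves. Against Col-0 leaves, 28 of the 50 other iron genes were called, 20 higher and 8 lower, where 62.0% of all genes were called. Without the 6 that passed the filter only through the homozygous group, 14 were higher, and the median log2 fold change was -0.04, beside 0.07 over all genes. PIC1 (-1.37), FRO7 (-2.25), FRO6 (-2.52), bHLH115 (0.76) and BTSL2 (1.62) were again among those with the smallest adjusted p. VTL3 and VTL4, iron transporter-like genes that lie in the deleted block, were at 0 TPM in all 15 samples of this experiment, so the deletion could not be read from them.

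**Figure D5:**
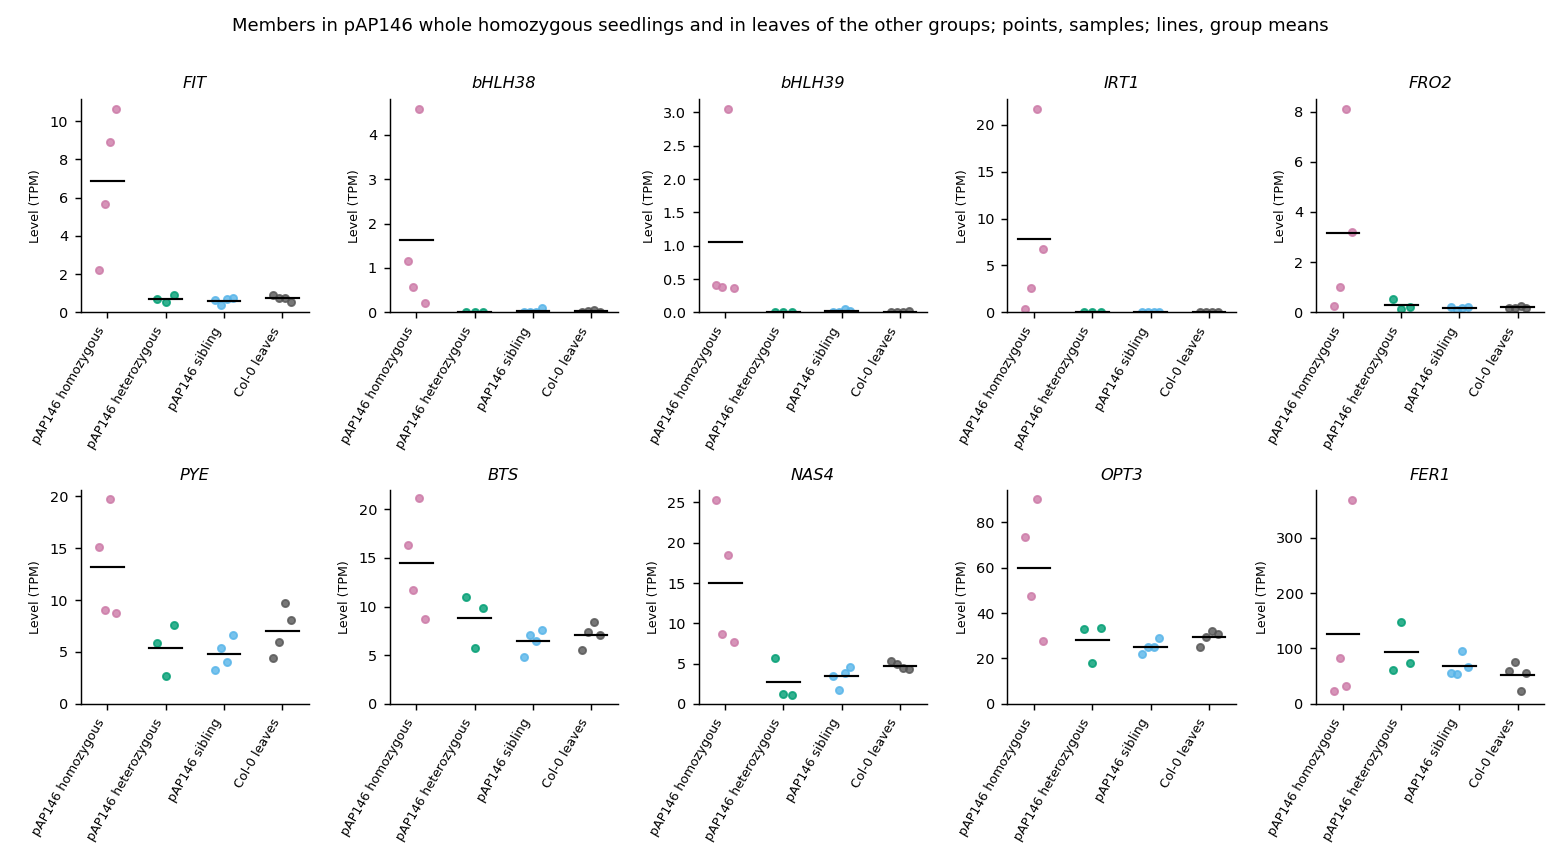
Levels (TPM, linear axes from 0) of the 10 members in pAP146 homozygous whole seedlings and in leaves of heterozygous, sibling and Col-0 plants, with points for samples and lines for group means. IRT1, bHLH38 and bHLH39 are at or near 0 in all leaves, and 1 homozygous sample holds 368 TPM of FER1.

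Leaves of heterozygous and sibling plants showed no called member. FER1 had 60.3, 147 and 73.3 TPM in heterozygous leaves, against 56.5, 54.6, 94.9 and 66.4 TPM in sibling leaves, and OPT3 had 33.2, 17.9 and 33.5 TPM in heterozygous leaves, against 21.9, 25.0, 25.1 and 29.0 TPM in sibling leaves. The groups overlapped for both genes, with log2 fold changes of 0.41 (SE 0.74) for FER1 and 0.05 (SE 0.31) for OPT3. NAS4 had 5.71, 1.22 and 1.06 TPM in heterozygous leaves, against 3.44, 1.71, 3.81 and 4.62 TPM in sibling leaves, a split in which 1 heterozygous plant was the highest and the other 2 the lowest of all 7. Across the genome 0.0528% of genes were called in heterozygous leaves and 0.0144% in siblings against Col-0 leaves. None of the 50 other iron genes was called by edgeR in either comparison, and DESeq2 called none. At an unadjusted p under 0.05 there was 1 gene in heterozygous leaves and 2 in siblings. In siblings against Col-0 leaves the 7 members with enough reads had log2 fold changes between -0.54 (PYE, SE 0.35) and 0.37 (FER1, SE 0.69).

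Over all groups the order of levels placed FER1 first in every group by mean TPM. In pAP146 homozygous seedlings this rested on replicate 4, and by median OPT3 (60.68 TPM) stood above FER1 (57.15 TPM). Group means of FER1 ran between 52.6 TPM in Col-0 leaves and 337 TPM in pAP142 t2. Those of OPT3 ran between 20.1 TPM in pAP141 t2 and 59.9 TPM in pAP146 homozygous seedlings. The OPT3 means of pAP142 t1 (53.5 ± 1.8 TPM, SD, n = 3) and Col-0 t1 (54.7 ± 5.4 TPM, SD, n = 4) differed by less than their spread, and pAP141 t1 (31.0 ± 4.9 TPM, SD, n = 4) lay beside Col-0 leaves (29.3 ± 3.2 TPM, SD, n = 4). IRT1 means were highest in Col-0 t2 (22.0 ± 13.8 TPM, SD, n = 3) and pAP141 t2 (20.8 ± 0.9 TPM, SD, n = 2), and 0 in all leaves.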

How the data were processed

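RNA-seq of 34 samples in 10 groups was used, with groups taken from the sample labels and no sample dropped. The authors made libraries with a stranded mRNA kit and quantified them with Salmon 1.6.0 against the primary transcripts of Araport11. They also mapped reads with HISAT2 2.2.1 and used DESeq2 1.44.0 for differential expression. Estimated counts, deposited without normalization, were made by the authors with Salmon, which divides reads among transcripts. TPM values, also deposited, come from the same run and correct for effective transcript length and library total. Listed lengths are coding lengths (99.9% are multiples of 3), so reads from untranslated regions are not counted.

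Estimated counts, 26640541 to 43851997 per sample, were rounded to whole numbers. Each experiment was fitted separately in edgeR 4.0.16 (R 4.3.3) with TMM scaling, filterByExpr and the quasi-likelihood test, across 21356 genes (time of day) or 20833 genes (pAP146), with Benjamini-Hochberg adjustment over all of them. The edgeR step was also tested on simulated data, in which all genes were given the same relative spread between samples. Alternatives were RLE size factors, no filter on low counts, a replicate block, DESeq2 1.42.0, TPM ratios for the members, and leaving out each sample. Upstream windows came from the RefSeq TAIR10.1 genome and tables were handled in Python 3.11.15.

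The members and all gene lists were chosen with earlier results of these data known. Other iron genes are named when among the 6 called with the smallest adjusted p in a comparison, with bHLH100, bHLH101, IMA1, IMA2, IMA3, FER3 and FER4 always, and VTL3 and VTL4 in pAP146. The DESeq2 calls in pAP141 and the levels of named genes by sample were picked after their values were seen. For 4 members the 3 most similar genes are named.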

Additional observations from a re-analysis of the deposited data

Results flagged for a closer look

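In groups of 4 samples, a sample was marked when its gap to the nearest other sample took up most of the range of its group (Dixon's test). This was done for the 10 members in 45 sets of samples, and chance marks about 1 set in 20. The 3 marks were all in the pAP146 experiment. FER1 in homozygous replicate 4 was at 368 TPM, against 23.2 to 82.0 TPM in the other 3 homozygous seedlings. bHLH39 in homozygous replicate 3 was at 3.05 TPM, against 0.372 to 0.405 TPM in the others. bHLH38 in sibling replicate 4 was at 0.0903 TPM, which is 4 counts, against 0 in the other siblings. Because the others were all at 0, the gap was the whole range, and this mark carries no weight. No cause was tested for any of the 3 marks.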

How the results depend on the processing

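Counts of other iron genes called moved by more than 1.5 times in these cases. In pAP141 t1 against Col-0 t1 the count was 0, and it was 2 with the replicate block, 6 with DESeq2 and 0 to 6 when 1 sample was left out (3 without Col-0 t1 replicate 1, 6 without pAP141 t1 replicate 3). The shares of all genes called were 0.0983% with the replicate block, 3.52% with DESeq2, and 0.0985% and 11.3% without these 2 samples in turn. In pAP141 t2 against Col-0 t2 the count was 0 and ran to 5 without pAP141 t2 replicate 2, where 11.4% of all genes were called. In pAP142 t2 against Col-0 t2 it was 3, 7 with DESeq2, and 2 to 8 with a sample left out, highest without pAP142 t2 replicate 1. For pAP141 t2 against t1 it was 27, and 17 to 25 with a sample left out, lowest without pAP141 t2 replicate 2. For the interaction of pAP142 with time point it was 0, 2 with DESeq2 and 1 without pAP142 t1 replicate 1. The cause was not tested. RLE size factors and dropping the filter moved no count that far. Samples with the same replicate number did not vary together (mean correlation 0.02 over 41 pairs in seedlings and -0.03 over 21 pairs in the pAP146 experiment), so the numbers were not taken as pairs. With the replicate block, calls over all genes for the interaction of pAP142 with time point numbered 15, against 45 without it.
Of the evening pAP141 values, the BTS call was lost without Col-0 t1 replicate 2 or 4 and without pAP141 t1 replicate 1 or 2 (log2 fold change -1.002 to -0.79), while that of OPT3 was kept in each case. All-gene calls in pAP141 t2 numbered 2472 without pAP141 t2 replicate 2, against 21 with it.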
